A study of Mus musculus with 10 samples.

Results

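Genes of cyclic nucleotide signalling were followed in RNA-seq libraries from the medial habenula of mice in nicotine withdrawal and of saline controls. The members were the rows of the deposited FPKM table whose symbol named an adenylyl cyclase (Adcy), a phosphodiesterase (Pde) or a catalytic or regulatory subunit of protein kinase A (Prkac, Prkar), together with Creb1, Crem, Atf1, Crtc1, Crtc2, Crtc3, Rapgef3, Rapgef4, Akap5 and Ppp1r1b. Of 56691 rows, 53 carried such a name, and the 45 with a mean of at least 0.5 FPKM (fragments per gene, scaled by the length of the gene and the size of the library) over the 10 libraries were kept. Pde4c lay just inside that minimum at 0.516 FPKM, and Pde1c (0.499 FPKM) and Pde6g (0.419 FPKM) lay just outside. The other members left out were Adcy10, Pde6a, Pde6b, Pde6c, Pde6h and the pseudogene Prkaca-ps1.

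All 10 mice were wild type. The withdrawal group was 6 mice that received nicotine ditartrate at 4 mg/kg, injected intraperitoneally 2 times a day over 14 days, and then saline from day 15. The control group was 4 mice given intraperitoneal saline for 17 days, and tissue was taken from both groups on day 17. The source label describes cholinergic neurons sorted by flow cytometry, whereas the series record describes medial habenula tissue and names no sort. Neither source gives age, sex, litter or batch.

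Cyclic AMP is made by adenylyl cyclases, which G proteins and, for some forms, calcium and calmodulin switch on or off, and it is broken down together with cyclic GMP by phosphodiesterases. It releases the catalytic subunits of protein kinase A (PKA) from their regulatory subunits, and it activates the Epac exchange factors for the small G protein Rap. PKA phosphorylates channels, receptors and the transcription factor Creb1, whose family binds the cyclic AMP response element and recruits CRTC coactivators. In neurons the pathway is known for setting transmitter release, excitability and activity-dependent transcription, and the medial habenula is a small epithalamic nucleus known for its cholinergic neurons and dense nicotinic receptors.

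The response element bound by Creb1 was searched for in the RefSeq promoter windows (GRCm38.p6, 250 bases before to 50 after each annotated start) of the 36 members that had one. The full element, TGACGTCA, was present in 1 member, Prkar1a, the main regulatory subunit of PKA. That is 2.78% of the members matched, against 2.03% of 27025 genes. The short element (TGACG or its reverse complement CGTCA, which also occur inside the full element) was present in 23.6% of the 72 member windows and in 20.8% of all windows. Counted by gene it was present in 41.7% of the 36 members and in 23.0% of all genes, but the members had more windows per gene (72 for 36) than all genes had (32851 for 27025). The stretches below are shown because Prkar1a, Prkaca, Prkacb and Prkar1b are the PKA subunits whose control and withdrawal levels did not overlap in the 8 libraries described further on. As the stretches were picked by those levels, no link between element and level can be read from them. Each is 30 bases upstream of a start, written 5′ to 3′ on the gene's own strand, with the element in capitals.
Prkar1a, chr11:109650889-109650918, plus strand, full element 49 bases before the start: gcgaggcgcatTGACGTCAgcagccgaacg
Prkaca, chr8:83972846-83972875, plus strand, short element 120 bases before the start: gtctgcaactcgCGTCActcatccaggagc
Prkacb, chr3:146813031-146813060, minus strand, short element 102 bases before the start: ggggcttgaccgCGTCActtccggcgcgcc
Prkar1b, chr5:139150033-139150062, minus strand, short element 49 bases before the start: tagagggcggagTGACGggcaggaggacga
Prkaca holds another short element 6 bases before its start. Prkar1a has more than 1 annotated start, and its full element lies in 2 windows. It also holds short elements 151 and 100 bases before other starts. Prkar2a and Prkar2b held neither element before a start. Of the 10 members called in the 8 libraries that had a window, 0 held the full element and 5 the short one (Adcy9, Pde4b, Prkaca, Prkacb and Prkar1b). These matches describe letters in a window and not measured binding.

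Library totals ran from 15023448 to 22026333 counts. Levels of a gene are given as CPM, its counts relative to the TMM-scaled library total. Comparisons between genes and sums over a family use FPKM, which is scaled by the library total without the TMM factor. That factor was 0.852 in control 2 and 0.994 to 1.05 in the other libraries. FPKM values and sums of control 2 are therefore lower, relative to the other libraries, than they would be as CPM. In 8 libraries the summed level of 10 markers of habenular cholinergic neurons lay between 779.8 and 1152 CPM, but it was 19.3 CPM in control 2 and 15.9 CPM in withdrawal 2. Chat, the enzyme that makes acetylcholine, was at 26.6 to 40.9 CPM in the 8 libraries, against 0.160 CPM for control 2 and 0.199 CPM for withdrawal 2. Glial transcripts were present in every library, with summed levels of 7 oligodendrocyte markers from 5859 to 14561 CPM and of 7 astrocyte markers from 2754 to 5800.0 CPM. Results are therefore given with all 10 libraries and with the 8 that remain without control 2 and withdrawal 2 (3 controls and 5 withdrawal libraries). In tissue RNA, fewer cells of a type and less RNA per cell cannot be told apart.

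With all 10 libraries, no member passed an adjusted p of 0.05 in edgeR's quasi-likelihood test, against 0.166% of the 17426 genes tested. At an unadjusted p under 0.05 there were 12 members, and 14.9% of all genes. DESeq2 called 3 members, against 2.26% of all genes: Pde9a, higher in withdrawal by 1.02 on the log2 scale with an adjusted p of 1.26e-05, Pde4b, higher by 0.46 (adjusted p = 0.00178), and Adcy9, lower with a log2 change of -1.55 (adjusted p = 0.0499). limma on log2(FPKM + 1) called none of the members and 0.0861% of all genes. The groups did not overlap for 4 members (8.89%), Pde9a and Pde4b higher and Creb1 and Pde4dip lower in withdrawal, against 3.27% of all genes. The median log2 change was -0.02 over the members and 0.02 over all genes tested.

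Without control 2 and withdrawal 2, edgeR called 12 of the 45 members (26.7%), against 12.1% of all genes. In withdrawal Pde9a, Prkar1b, Pde4b, Adcy8, Prkacb and Prkaca rose, against 5.38% of all genes that were higher. Adcy1, Adcy9, Akap5, Crtc1, Creb1 and Pde4dip fell, against 6.77% of all genes that were lower. The groups of 13 members (28.9%) did not overlap, the 12 called ones and Prkar1a, against 21.9% of all genes. The median log2 change was -0.04 over the members and 0.01 over all genes, and the median size of the change was 0.20 and 0.18. The count of 12 depended on single libraries, as did the calls over all genes. It was 6 without control 3 (5.20% of all genes called), 7 without withdrawal 5 (6.61% of all genes) and 15 without withdrawal 6 (17.3% of all genes). DESeq2 called 16 members and 17.0% of all genes, adding Pde8a and Pde8b (lower), Rapgef4 (lower) and Prkar1a (higher). edgeR without an FPKM minimum called 13 members and 6.25% of all genes. Unless another tool is named, the words rose, fell and called refer to edgeR with the minimum of 0.5 FPKM.

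**Figure D1:**
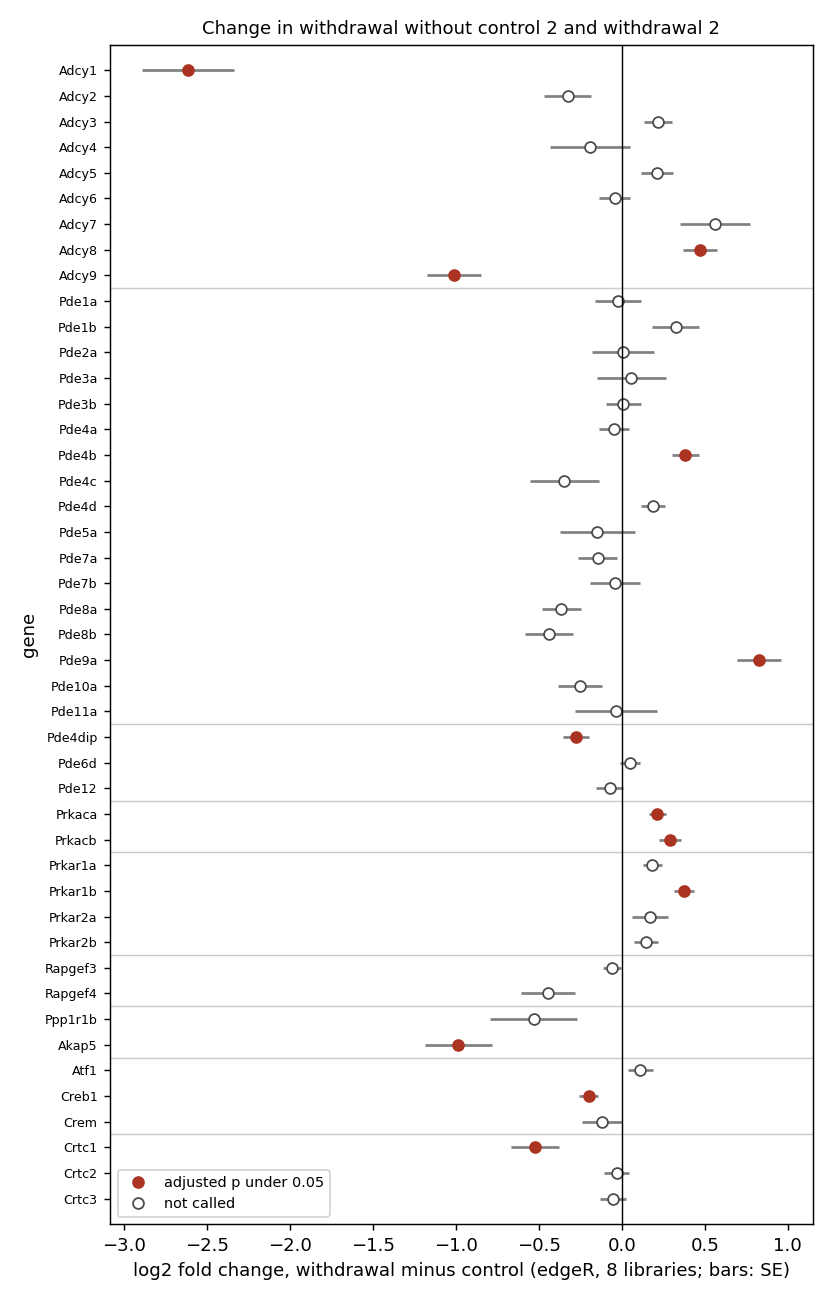
Log2 fold change of each of the 45 members, withdrawal minus control, from edgeR on the 8 libraries without control 2 and withdrawal 2. Bars are standard errors, filled points are the 12 members with an adjusted p under 0.05, grey lines separate the roles, and Adcy1 lies farthest from 0 at -2.62.

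Among the 9 adenylyl cyclases, 2 fell and 1 rose in the 8 libraries, and 6 did not pass the test, where 12.1% of all genes were called. Families this small are described gene by gene, and their counts are not read as a result about a family. Adcy1 had the highest mean level of the family at 41.6 FPKM, followed by Adcy2 (18.4 FPKM), Adcy5 (15.6 FPKM) and Adcy6 (10.7 FPKM). Adcy9 (7.49 FPKM), Adcy8 (6.37 FPKM), Adcy3 (5.35 FPKM), Adcy7 (2.41 FPKM) and Adcy4 (1.03 FPKM) were lower. Adcy2, Adcy4 and Adcy7 are the forms stimulated by G protein beta-gamma subunits, Adcy5 and Adcy6 are inhibited by calcium and by inhibitory G proteins, and Adcy3 is known from olfactory neurons and neuronal cilia.

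Adcy1 (ENSMUSG00000020431), a cyclase stimulated by calcium and calmodulin, was at 530.1, 1029.5 and 454 CPM in controls 1, 3 and 4. It was at 109, 92.6, 149.7, 123 and 75.6 CPM in withdrawal 1, 3, 4, 5 and 6. Control 2 held 2079.9 CPM and withdrawal 2 held 866 CPM. The 3 controls thus lay above all 5 withdrawal libraries, and each of the 2 libraries with little Chat was the highest of its group. In the 8 libraries Adcy1 fell by 2.62 on the log2 scale (edgeR, SE 0.276, adjusted p = 0.00105), from 671 ± 312 CPM (SD, n = 3) to 110.0 ± 28.4 CPM (SD, n = 5). The log2 change was between -2.84 and -2.17 when any 1 of the 8 libraries was left out. With all 10 libraries it was -2.12 (SE 0.761) with an adjusted p of 0.280, and it passed without withdrawal 2 (log2 change -3.25, adjusted p = 0.0121), where 4.67% of all genes did.

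Adcy9 (ENSMUSG00000005580), a widely expressed cyclase that responds poorly to forskolin, was at 33.6, 52.9 and 30.97 CPM in controls 1, 3 and 4. In withdrawal 1, 3, 4, 5 and 6 it was at 16.5, 21.1, 19.4, 19.3 and 20.9 CPM. These groups did not overlap, and control 2 (151 CPM) and withdrawal 2 (43.4 CPM) were again the highest of their groups. Adcy9 fell by 1.01 on the log2 scale in the 8 libraries (edgeR, SE 0.165, adjusted p = 0.00629). Leaving out any 1 of the 8 libraries gave log2 changes from -1.16 to -0.74, all called. Over the 10 libraries the change was -1.52 with an adjusted p of 0.264, and it was -0.74 (adjusted p = 0.436) without control 2.

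Adcy8 (ENSMUSG00000022376), the other calcium and calmodulin stimulated cyclase, differed in the opposite direction. It was at 46.1, 43.7 and 54.1 CPM in controls 1, 3 and 4 and at 54.5, 70.03, 67.1, 74.9 and 66.6 CPM in withdrawal 1, 3, 4, 5 and 6. The highest control, 54.1 CPM, lay just under the lowest of these withdrawal libraries. Control 2 (24.1 CPM) and withdrawal 2 (13.6 CPM) were the lowest of their groups. Adcy8 rose by 0.47 on the log2 scale in the 8 libraries (edgeR, SE 0.103, adjusted p = 0.0189). The call was lost without control 1 (adjusted p = 0.0675) and without control 3 (adjusted p = 0.0910), and with all 10 libraries the adjusted p was 0.596.

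The make-up of the cyclase pool by FPKM differed accordingly between the libraries. Adcy1 made up 39.3% to 55.5% of the summed cyclase FPKM in controls 1, 3 and 4 and 9.03% to 17.2% in the 5 withdrawal libraries. Adcy8 made up 3.62% to 7.19% and 9.56% to 13.4% in these groups. Adcy5 made up 8.85% to 13.8% and 19.6% to 25.5%, although its own change did not pass the test (log2 change 0.21, adjusted p = 0.177). A share also depends on the other genes of the sum, and those of Adcy2, Adcy3, Adcy6 and Adcy7 were likewise higher without overlap. Adcy2 made up 12.8% to 14.7% and 15.7% to 22.7%, while its own log2 change was -0.33 and not called. The summed cyclase level was 94.05 to 148 FPKM in the 3 controls and 68.9 to 71.9 FPKM in the 5 withdrawal libraries, with 248 FPKM in control 2 and 143 FPKM in withdrawal 2. The FPKM ratio of Adcy1 to Adcy8 was 7.49, 15.4 and 5.47 in controls 1, 3 and 4, against 1.30, 0.861, 1.45, 1.07 and 0.739 in withdrawal 1, 3, 4, 5 and 6. Control 2 (56.2) and withdrawal 2 (41.5) lay above all of these, and Adcy1 made up 57.0% and 47.9% of the cyclase FPKM there, so withdrawal 2 went against the contrast of the 8 libraries.

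**Figure D2:**
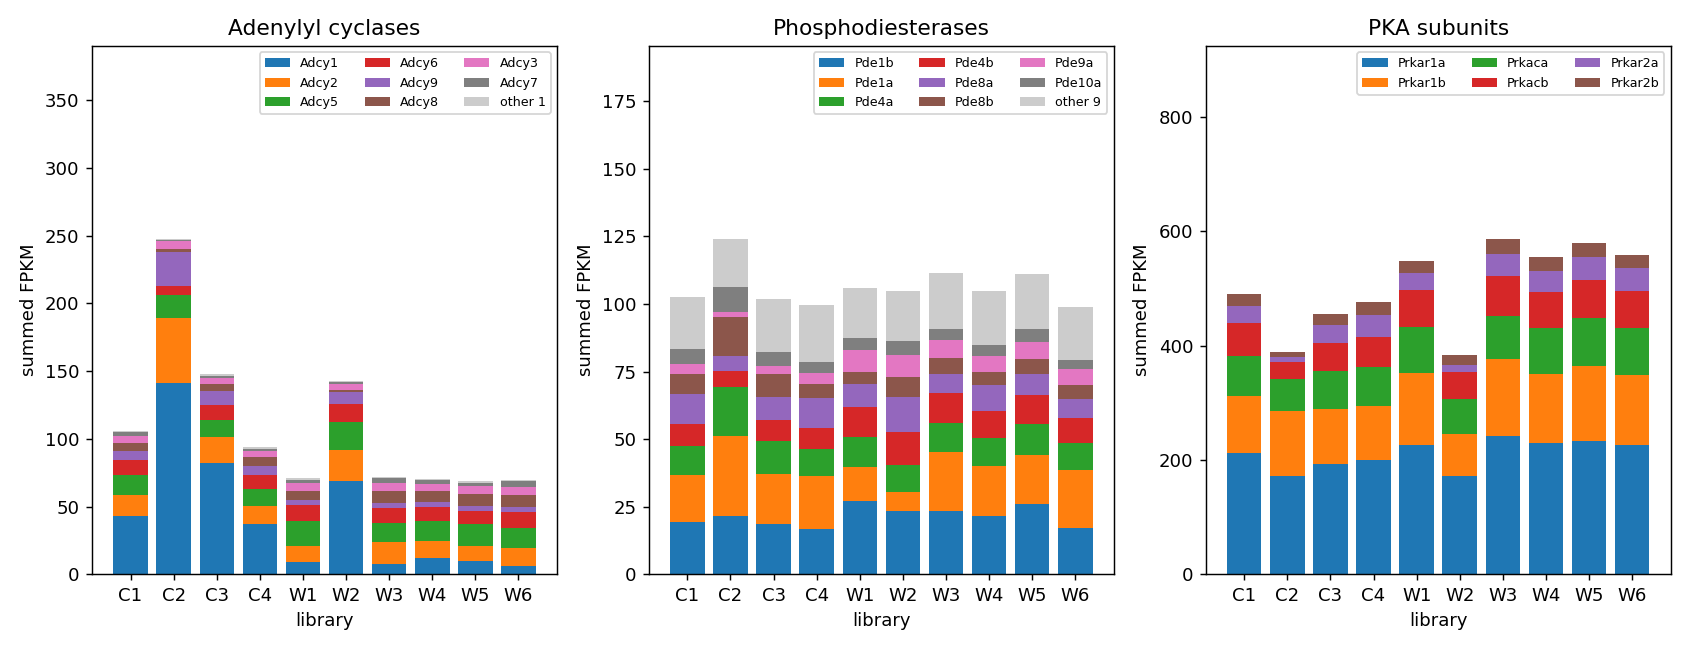
Summed FPKM of the adenylyl cyclases, the phosphodiesterases and the PKA subunits in each library (C control, W withdrawal), stacked by gene. The Adcy1 block is large in all 4 controls and in withdrawal 2. The phosphodiesterase total lies between 98.9 and 124 FPKM in all 10 libraries, on a scale without TMM factors.

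Adcy2 and Adcy7 were not called but stood apart in the 2 libraries with little Chat. Adcy2 was at 64.8, 80.1 and 54.8 CPM in controls 1, 3 and 4, at 50.7, 66.3, 50.6, 45.2 and 52.7 CPM in the 5 withdrawal libraries, and reached 237 CPM in control 2 and 100.3 CPM for withdrawal 2. Adcy7 was at 18.5, 10.2 and 12.8 CPM in controls 1, 3 and 4, at 17.3, 22.7, 18.4, 16.5 and 27.01 CPM in the 5 withdrawal libraries, with 7.05 CPM for control 2 and 9.87 CPM for withdrawal 2. The 3 controls and 5 withdrawal libraries overlapped for both genes, with adjusted p of 0.162 for Adcy2 and 0.111 for Adcy7 in edgeR. Adcy3, Adcy4 and Adcy6 had log2 changes of 0.22, -0.19 and -0.04 in the 8 libraries, none of them called, although Adcy3 passed without control 1 (0.31, adjusted p = 0.0395).

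Of the 17 cyclic nucleotide phosphodiesterases, 2 rose in the 8 libraries in edgeR's test, none fell and 15 did not pass. That count is near the 12.1% of all genes called. DESeq2 and edgeR without an FPKM minimum also called Pde8a and Pde8b lower. The summed level of the family was 99.6 to 103 FPKM in controls 1, 3 and 4 and 98.9 to 112 FPKM in the 5 withdrawal libraries. The calmodulin-activated enzymes Pde1b (21.5 FPKM) and Pde1a (18.5 FPKM) had the highest mean levels. Next came the cyclic AMP specific Pde4a (11.5 FPKM), Pde4b (9.40 FPKM), Pde8a (8.98 FPKM) and Pde8b (6.81 FPKM).

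Pde9a (ENSMUSG00000041119), a high-affinity phosphodiesterase specific for cyclic GMP, was at 13.6, 11.01 and 14.2 CPM in controls 1, 3 and 4. It was at 28.3, 22.7, 20.6, 22.5 and 20.6 CPM in withdrawal 1, 3, 4, 5 and 6. Control 2 held 8.23 CPM and withdrawal 2 held 29.5 CPM, so all 6 withdrawal libraries lay above all 4 controls. Pde9a rose by 0.82 on the log2 scale in the 8 libraries (edgeR, SE 0.133, adjusted p = 0.00607), from 12.9 ± 1.69 CPM (SD, n = 3) to 22.9 ± 3.16 CPM (SD, n = 5). It had the lowest adjusted p of the members with all 10 libraries (log2 change 1.03, SE 0.177, adjusted p = 0.0677). The call held when any 1 of the 8 libraries was left out, with log2 changes from 0.71 to 0.89, and with all 10 libraries it was gained by leaving out withdrawal 2 (log2 change 0.96, adjusted p = 0.0207).

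Pde4b (ENSMUSG00000028525), a cyclic AMP specific enzyme and a target of rolipram, was at 86.7, 81.3 and 79.7 CPM in controls 1, 3 and 4 and at 74.1 CPM in control 2. It was at 116, 112, 106, 112 and 92.3 CPM in withdrawal 1, 3, 4, 5 and 6 and at 131 CPM in withdrawal 2. As for Pde9a, all 6 withdrawal libraries lay above all 4 controls. Pde4b rose by 0.38 in the 8 libraries (edgeR, SE 0.0810, adjusted p = 0.0168), a call lost without control 4 (adjusted p = 0.0573). Over the 10 libraries the log2 change was 0.47 (adjusted p = 0.140), and it passed without withdrawal 2 (0.41, adjusted p = 0.0267). The FPKM ratio of Pde4b to Pde4a was 0.784, 0.620 and 0.770 in controls 1, 3 and 4, and 0.983, 0.997, 0.997, 0.939 and 0.910 in the 5 withdrawal libraries.

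Pde1b was at 103, 99.9 and 88.9 CPM in controls 1, 3 and 4, at 144, 122, 114, 139.8 and 89.4 CPM in the 5 withdrawal libraries, with 136 CPM for control 2 and 127 CPM for withdrawal 2. The lowest withdrawal library, 89.4 CPM, lay among the controls, and the change was not called in edgeR (log2 change 0.32, adjusted p = 0.167). Without withdrawal 6, the lowest of the group, it was called (0.40, adjusted p = 0.0186). Pde1a, which shares its activation by calmodulin, was at 102, 112 and 116 CPM in controls 1, 3 and 4 and at 75.2, 126, 111, 108 and 122 CPM in the 5 withdrawal libraries, a full overlap. It was the highest in control 2 (209 CPM) and the lowest in withdrawal 2 (44.5 CPM).

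Pde11a, which hydrolyses both cyclic nucleotides, was at 9.57, 10.1 and 11.7 CPM in controls 1, 3 and 4 and at 5.23, 12.9, 12.8, 9.58 and 10.6 CPM in the 5 withdrawal libraries. It lay below that range in control 2 (3.31 CPM) and in withdrawal 2, where 0.648 CPM was 0.0627 of the median of the 8 libraries. The groups overlapped, and the log2 change of -0.04 was not called.

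The remaining phosphodiesterases had mean levels from 0.516 to 4.96 FPKM: Pde10a, a dual enzyme known from the striatum (4.96 FPKM), the cyclic AMP specific Pde7a (4.62 FPKM), Pde4d (3.21 FPKM), Pde7b (1.67 FPKM) and Pde4c, the cyclic GMP stimulated Pde2a (3.40 FPKM), the cyclic GMP inhibited Pde3b (2.08 FPKM) and Pde3a (0.757 FPKM), and the cyclic GMP specific Pde5a (1.63 FPKM). None of them was called. Pde8a and Pde8b came nearest to the threshold, with log2 changes of -0.37 (edgeR adjusted p = 0.0700) and -0.44 (edgeR adjusted p = 0.0765). DESeq2 gave adjusted p of 0.0344 for Pde8a and 0.0327 for Pde8b, and edgeR without an FPKM minimum 0.0496 and 0.0440. Leaving out withdrawal 4 brought Pde8a past the threshold (-0.43, adjusted p = 0.0465), and leaving out control 4 brought Pde8b past it (-0.61, adjusted p = 0.0188).

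The names of 3 members begin with Pde although they are not cyclic nucleotide phosphodiesterases: Pde6d, a carrier of prenylated proteins (17.3 FPKM), Pde12, a mitochondrial RNA-trimming enzyme (3.06 FPKM), and Pde4dip, also called myomegalin, a centrosome and Golgi protein that binds PDE4 (13.2 FPKM). Pde4dip (ENSMUSG00000038170) was at 221, 269 and 218 CPM in controls 1, 3 and 4 and at 188, 195, 206, 200.2 and 187 CPM in the 5 withdrawal libraries. With 358 CPM in control 2 and 214 CPM in withdrawal 2, its groups did not overlap in either set of libraries. It fell by 0.27 in the 8 libraries (edgeR, SE 0.0778, adjusted p = 0.0470). The call was lost when control 3 or withdrawal 1, 3, 4 or 5 was left out, with adjusted p from 0.0657 to 0.106 and a log2 change of -0.18 without control 3. Pde6d and Pde12 had log2 changes of 0.05 and -0.07, neither of them called.

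Both catalytic subunits of PKA rose in the 8 libraries, and 1 of the 4 regulatory subunits did, where 5.38% of all genes were higher. Prkaca (ENSMUSG00000005469), the catalytic alpha subunit, had a mean of 72.9 FPKM and Prkacb (ENSMUSG00000005034), the beta subunit, 56.2 FPKM. Prkaca was at 171, 169 and 168 CPM in controls 1, 3 and 4 and at 199, 184, 199.5, 205 and 198 CPM in the 5 withdrawal libraries. These groups did not overlap, while control 2 (165 CPM) and withdrawal 2 (155 CPM) lay below all of them. Prkaca rose by 0.21 (edgeR, SE 0.0511, adjusted p = 0.0264), but the call remained only when withdrawal 3 or withdrawal 6 was the library left out, with adjusted p from 0.0534 to 0.0792 for the other 6.

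Prkacb was at 502, 425 and 456 CPM in controls 1, 3 and 4 and at 567, 583, 536, 584 and 547 CPM in the 5 withdrawal libraries. The withdrawal libraries all lay above these controls, and control 2 (299 CPM) and withdrawal 2 (409 CPM) were the lowest of their groups. Prkacb rose by 0.29 (edgeR, SE 0.0655, adjusted p = 0.0219). The call was lost without control 3 (adjusted p = 0.0803), control 4 (0.0690) or withdrawal 5 (0.0559). Over the 10 libraries the adjusted p was 0.353 for Prkaca and 0.317 for Prkacb.

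Prkar1b (ENSMUSG00000025855), the neuronal type I regulatory subunit, was at 377, 369 and 351 CPM in controls 1, 3 and 4 and at 473, 498, 456, 498 and 448 CPM in the 5 withdrawal libraries. These groups did not overlap, but control 2 (508 CPM) lay above all other libraries and withdrawal 2 (286 CPM) below all others. Prkar1b rose by 0.37 in the 8 libraries (edgeR, SE 0.0606, adjusted p = 0.00615), from 365 ± 13.1 CPM (SD, n = 3) to 474 ± 23.2 CPM (SD, n = 5). The call held when any 1 of the 8 libraries was left out. Over the 10 libraries the log2 change was 0.14 with an adjusted p of 0.697.

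Prkar1a (ENSMUSG00000020612), the ubiquitous type I subunit whose promoter window holds the full response element shown above, had the highest level of all members at 211 FPKM. It was at 901, 832 and 849.6 CPM in controls 1, 3 and 4 and at 971, 1007, 979.9, 1004 and 935 CPM in the 5 withdrawal libraries. The groups did not overlap, yet the log2 change of 0.18 did not pass (edgeR, SE 0.0557, adjusted p = 0.0584). It passed without withdrawal 6 (adjusted p = 0.0397), with a minimum of 1 FPKM (0.0483), in DESeq2 (0.00436) and in limma on log2(FPKM + 1) and log2(FPKM + 0.1) (0.0371 and 0.0368). Control 2 (876 CPM) lay among the controls and withdrawal 2 (749.8 CPM) below every other library.

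The type II regulatory subunits were less abundant, Prkar2a at 30.7 FPKM and Prkar2b at 20.8 FPKM. Prkar2a was at 185, 197 and 238 CPM in controls 1, 3 and 4 and at 184, 244, 238, 254 and 245 CPM in the 5 withdrawal libraries, with 77.1 CPM for control 2 and 76.7 CPM for withdrawal 2. The 2 latter libraries were the lowest by far, and the other groups overlapped. Neither Prkar2a (log2 change 0.17, adjusted p = 0.345) nor Prkar2b (0.15, adjusted p = 0.213) was called. The FPKM ratio of regulatory to catalytic subunits stayed between 2.76 and 3.04 in the 8 libraries, with means of 2.89 ± 0.0483 (SD, n = 3) in control and 2.87 ± 0.113 (SD, n = 5) in withdrawal. Outside that range lay control 2 at 3.55 and withdrawal 2 at 2.57.

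**Figure D3:**
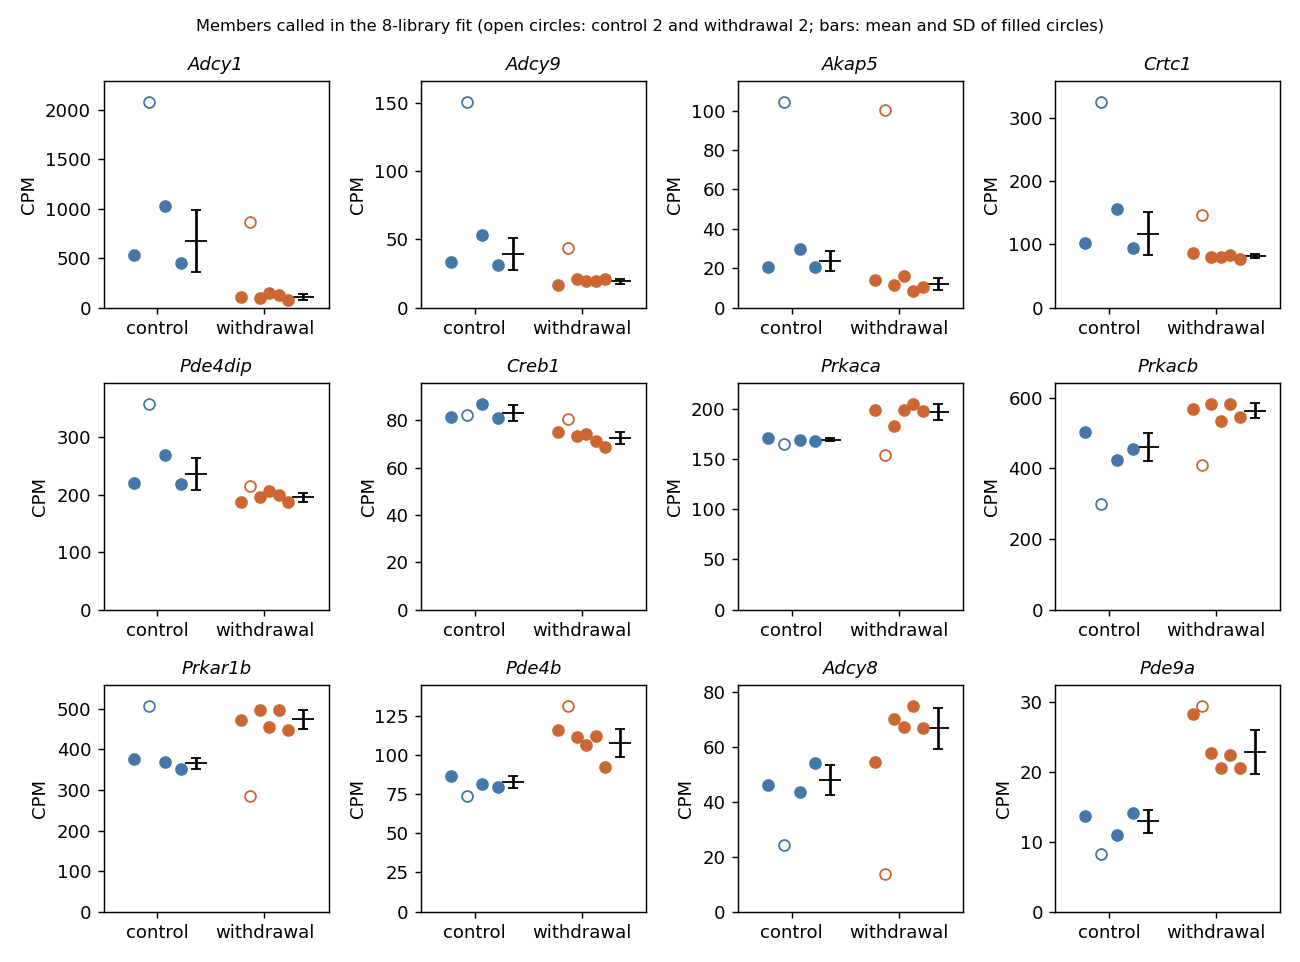
CPM of the 12 members called in the 8-library comparison, each library as a circle, with open circles for control 2 and withdrawal 2 and bars for the mean and SD of the filled circles. The filled circles of the groups do not overlap in any panel, while the open circle of withdrawal 2 lies among or beyond the controls in every panel except Pde9a, Pde4b, Creb1 and Pde4dip.

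Neither Epac exchange factor was called by edgeR in the 8 libraries. Rapgef4, the neuronal Epac with a mean of 51.96 FPKM, was at 304, 389 and 357 CPM in controls 1, 3 and 4 and at 240.1, 193, 354, 255 and 247 CPM in the 5 withdrawal libraries. Withdrawal 4 overlapped the controls, and control 2 (573 CPM) and withdrawal 2 (614 CPM) lay above every other library. The log2 change in the 8 libraries was -0.45 (edgeR, SE 0.161, adjusted p = 0.0973). Rapgef4 did pass without withdrawal 4 (-0.58, adjusted p = 0.0191), in DESeq2 (-0.45, adjusted p = 0.0433) and in edgeR without an FPKM minimum (-0.46, adjusted p = 0.0490). Rapgef3, the other Epac, had a mean of 7.77 FPKM and a log2 change of -0.06 (adjusted p = 0.524).

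Akap5 (ENSMUSG00000021057), a postsynaptic anchor that holds PKA and calcineurin near receptors and channels, had a mean of 4.71 FPKM. It was at 20.8, 29.7 and 20.7 CPM in controls 1, 3 and 4 and at 13.9, 11.4, 15.9, 8.39 and 10.6 CPM in the 5 withdrawal libraries. These groups did not overlap, and control 2 (105 CPM) and withdrawal 2 (100.3 CPM) were several times above all of them. Akap5 fell by 0.99 in the 8 libraries (edgeR, SE 0.201, adjusted p = 0.0143), a call lost without control 3 (adjusted p = 0.0607). With all 10 libraries the log2 change was -0.72 (adjusted p = 0.684), and it turned to 0.18 (adjusted p = 0.945) when only control 2 was left out.

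Ppp1r1b, also called DARPP-32, becomes an inhibitor of protein phosphatase PP1 once PKA phosphorylates it, and had a mean of 43.05 FPKM. It was at 148, 148 and 171 CPM in controls 1, 3 and 4, at 84.4, 68.03, 117, 87.7 and 183 CPM in the 5 withdrawal libraries, with 56.9 CPM for control 2 and 189 CPM for withdrawal 2. Withdrawal 6 lay above all controls and the other 4 below controls 1, 3 and 4. The log2 change of -0.53 was not called (edgeR, SE 0.261, adjusted p = 0.210), but without withdrawal 6 it was -0.82 and was called (adjusted p = 0.00872). The summed level of 6 markers of choroid plexus and ependyma was likewise lowest in control 2 (83.7 CPM) and withdrawal 3 (194 CPM) and high in withdrawal 2 (12813 CPM), control 4 (10009 CPM) and withdrawal 6 (9479.6 CPM). It was 7096 to 10009 CPM in controls 1, 3 and 4 and 194 to 9479.6 CPM in the 5 withdrawal libraries, and its part in the Ppp1r1b levels was not tested.

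Among the transcription factors, Atf1 had a mean of 5.85 FPKM, Creb1 5.62 FPKM and Crem 2.04 FPKM. Creb1 (ENSMUSG00000025958), the main activator that PKA phosphorylates, was at 81.6, 87.1 and 81.2 CPM in controls 1, 3 and 4 and at 75.02, 73.2, 74.3, 71.5 and 68.8 CPM in the 5 withdrawal libraries. With 82.2 CPM in control 2 and 80.6 CPM in withdrawal 2, its groups did not overlap in either set of libraries, and its levels in the 10 libraries lay between 68.8 and 87.1 CPM. Creb1 fell by 0.20 in the 8 libraries (edgeR, SE 0.0565, adjusted p = 0.0460). The call remained in only 1 of the 8 comparisons with a library left out, that without withdrawal 6 (adjusted p = 0.0373), and the other 7 gave adjusted p from 0.0557 to 0.115. Atf1 and Crem, 2 relatives of Creb1, had log2 changes of 0.11 and -0.12 and were not called.

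The CRTC coactivators enter the nucleus when dephosphorylated and bind Creb1. Crtc1 (ENSMUSG00000003575), the form best known from neurons, had a mean of 10.6 FPKM, Crtc2 9.07 FPKM and Crtc3 2.62 FPKM. Crtc1 was at 102, 155 and 93.8 CPM in controls 1, 3 and 4 and at 86.5, 79.8, 79.96, 82.9 and 77.4 CPM in the 5 withdrawal libraries. The groups did not overlap, control 3 lay far above the rest, and control 2 (325 CPM) and withdrawal 2 (146 CPM) were the highest of their groups. Crtc1 fell by 0.53 (edgeR, SE 0.144, adjusted p = 0.0416), or by 0.27 without control 3 (adjusted p = 0.0401). The call was lost without withdrawal 1, 3, 4 or 5, with adjusted p from 0.0650 to 0.0826. Crtc2 and Crtc3 had log2 changes of -0.03 and -0.05 and were not called.

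**Figure D4:**
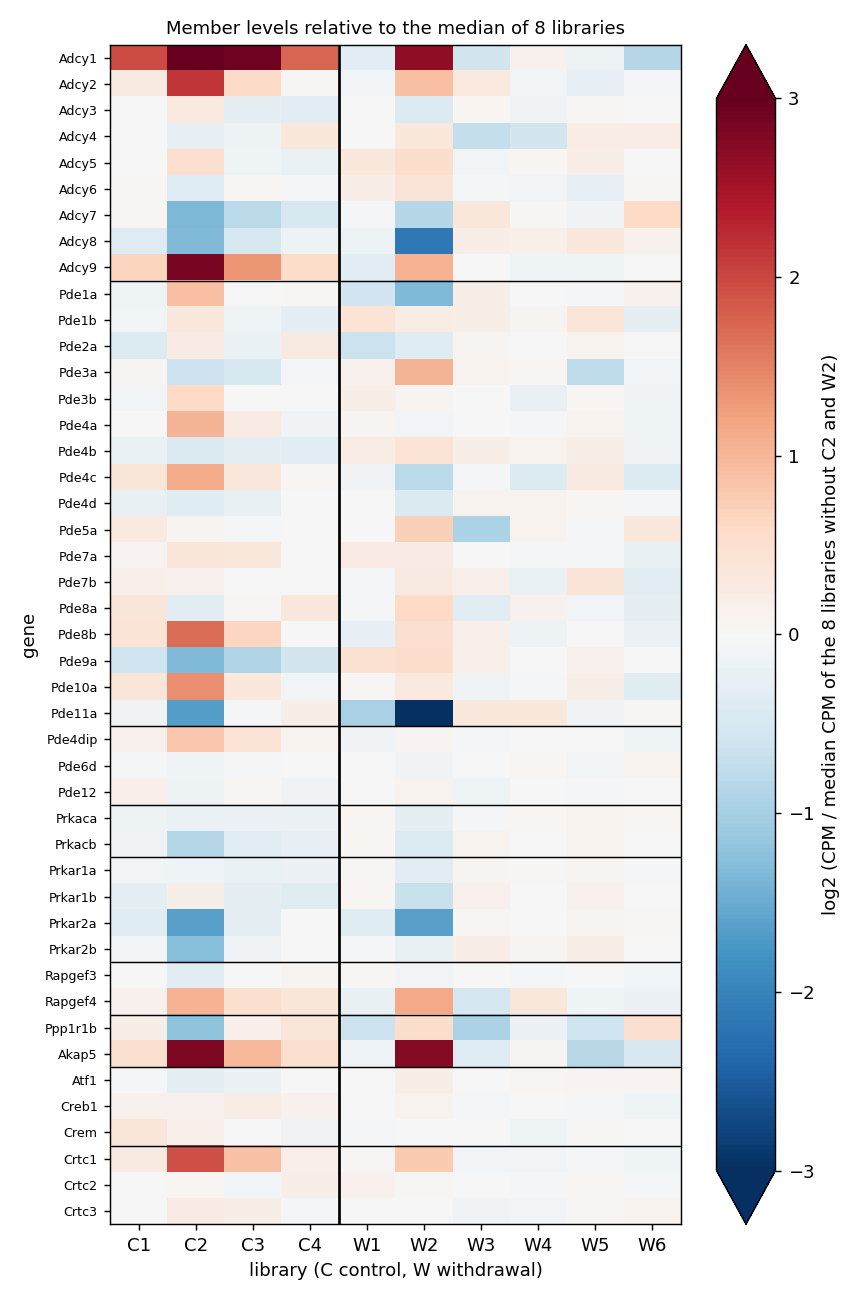
Level of each of the 45 members in each library as log2 of its CPM over the median CPM of the 8 libraries without control 2 and withdrawal 2, with colours saturated at 3 and lines between roles. Control 2 and withdrawal 2 carry the strongest colours in most rows, and Adcy1, Adcy9, Akap5 and Crtc1 are also raised in control 3.

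Control 2 and withdrawal 2 differed from the 8 libraries in most members. In control 2, 18 members lay above all 8 libraries and 17 below, and in withdrawal 2 these counts were 13 and 15. Over all genes tested, 29.5% lay above and 34.9% below the 8 libraries in control 2, and 22.1% and 23.5% in withdrawal 2. Relative to the median of the 8 libraries, Adcy1, Adcy9, Akap5 and Adcy2 had the largest ratios in control 2 (15.3, 7.17, 7.02 and 4.41), and Pde11a, Prkar2a, Adcy7 and Adcy8 the smallest (0.321, 0.324, 0.395 and 0.398). In withdrawal 2 the largest were those of Akap5, Adcy1, Rapgef4 and Adcy9 (6.74, 6.35, 2.198 and 2.06), and the smallest those of Pde11a, Adcy8, Prkar2a and Pde1a (0.0627, 0.225, 0.322 and 0.400).

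Some markers of hippocampal and cortical excitatory neurons were also lower in withdrawal in the 8 libraries. Of 9 such markers, 4 were called lower in withdrawal in the 8 libraries (Camk2a, Neurod2, Neurod6 and Prox1), against 6.77% of all genes, and none higher. The summed level of the 9 markers was 1562 to 3158 CPM in controls 1, 3 and 4 and 666 to 932 CPM in the 5 withdrawal libraries. It was 9625 CPM in control 2 and 2848 CPM in withdrawal 2. In withdrawal 2 this sum lay above controls 1 and 4, and so did Adcy1, Adcy9, Akap5 and Crtc1. Creb1 and Pde4dip instead lay below all 4 controls there. No marker of the list was at 0 in all libraries. Camk2a, a calcium and calmodulin dependent kinase abundant in forebrain neurons, was at 1002, 2053 and 902 CPM in controls 1, 3 and 4 and between 194 and 377 CPM in the 5 withdrawal libraries. The sum of the 9 markers was 1606, 3158 and 1562 CPM in these controls, so Camk2a alone was the larger part of it there. Control 3 thus had the highest sum of these markers and the most Adcy1, Adcy9, Akap5, Crtc1, Pde4dip and Creb1 among the 8 libraries. The part of these markers in the lower levels of the 6 members was not tested.

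**Figure D5:**
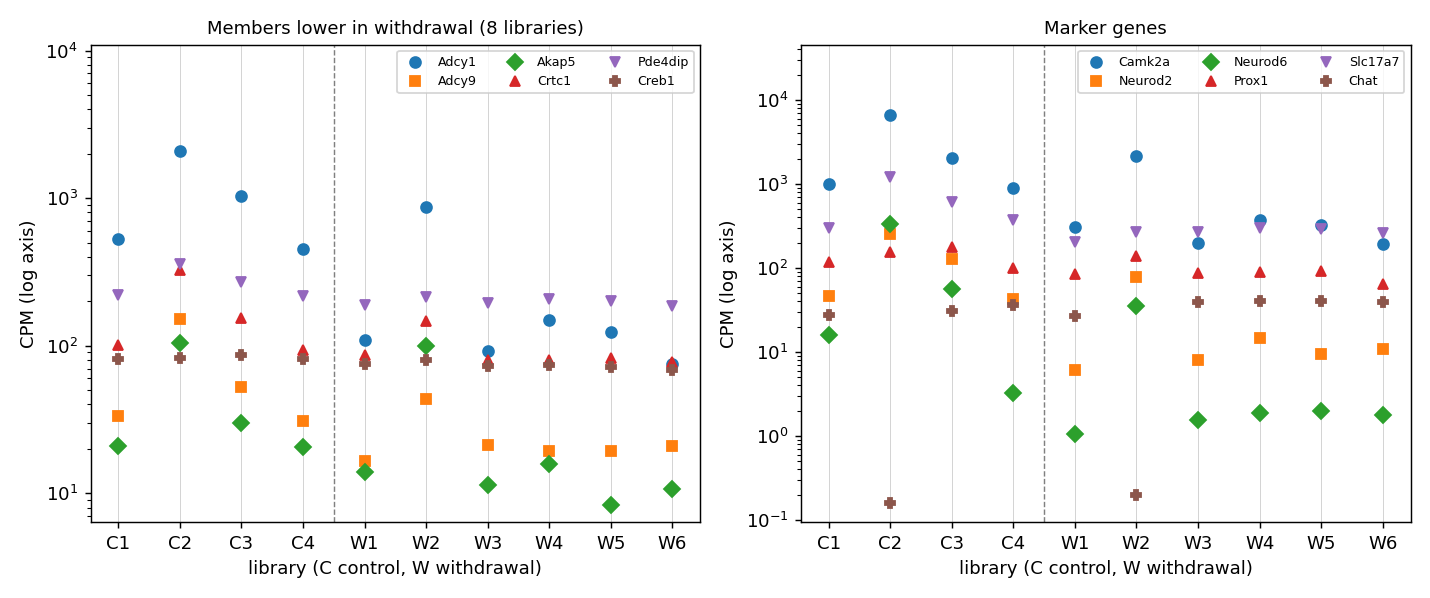
CPM on a log axis in each library for the 6 members that fell in the 8-library comparison (left) and for 5 markers of forebrain excitatory neurons with Chat (right). Adcy1 and Camk2a are high in the same libraries, the 4 controls and withdrawal 2, and Chat is at or below 0.199 CPM in control 2 and withdrawal 2.

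Markers of other cells also differed between the groups of the 8 libraries, where 5.38% of all genes were higher and 6.77% lower. Of 8 thalamic markers, 3 were higher in withdrawal (Lef1, Calb2 and Slc17a6), with summed levels of 646 to 999 CPM in the 3 controls and 1038 to 1649.7 CPM in the 5 withdrawal libraries. Of 7 oligodendrocyte markers, 5 were lower, with summed levels of 11048 to 12317 CPM and 5859 to 10107 CPM. Of the others, 2 of 8 striatal markers were higher, 2 of 7 astrocyte markers, 2 of 5 oligodendrocyte precursor markers and 1 of 7 endothelial and mural markers were lower, and none of the GABAergic, microglial, choroid plexus, pineal or blood markers was called. None of the 10 habenular markers was called, and their summed levels were 856 to 1129 CPM in the 3 controls and 779.8 to 1152 CPM in the 5 withdrawal libraries. The part of these other markers in the changes of the members was not tested.

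Of the 5 photoreceptor and pineal phosphodiesterase subunits that the minimum of 0.5 FPKM left out, Pde6b, Pde6c and Pde6g were high in a single library, and Pde6a and Pde6h stayed at or below 0.24 FPKM. Pde6b reached 1.09 FPKM and Pde6c 1.32 FPKM in withdrawal 3, where Pde6g was highest too. The pineal markers were also highest there, with a summed level of 54.4 CPM against at most 9.45 CPM elsewhere.

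Other genes around the pathway were taken from lists of pathway genes and compared in the 8 libraries, where 5.38% of all genes were higher and 6.77% lower. Each list held few calls, and nothing particular to a list is read from them. Upstream, 2 of 10 G protein genes rose and none fell: Gnas, the stimulatory alpha subunit (log2 change 0.30, SE 0.0620, adjusted p = 0.0144), and Gnai2, an inhibitory alpha subunit (0.20, adjusted p = 0.0403). None of 8 genes for guanylyl cyclases, cyclic GMP dependent kinases and nitric oxide synthase was called, and the smallest p was that of the kinase Prkg2 (log2 change 0.65, adjusted p = 0.295). Of the 3 PKA inhibitor peptides, Pkig fell by 0.63 (adjusted p = 0.0184) and the other two were not called. These adjusted p-values, and those that follow, come from the same edgeR comparison over all genes.

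Among 13 other A-kinase anchors, Akap6, a nuclear envelope anchor (0.28, adjusted p = 0.0350), and Akap12, a plasma membrane anchor (0.45, adjusted p = 0.0385), rose on the log2 scale, and Wasf1, an actin regulator that also binds PKA, fell by 0.95 (adjusted p = 0.0220). Of 7 channels and Popeye proteins that bind cyclic nucleotides, Hcn3, a pacemaker channel, rose by 0.45 (adjusted p = 0.0152). Of 7 genes for Rap and its regulators, Rapgef5, a Rap exchange factor, fell by 1.32 (adjusted p = 0.00857).

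Downstream, 2 of 19 partners and kinases of CREB fell and none rose: Ppp3ca, the calcineurin subunit that dephosphorylates CRTC proteins (log2 change -1.46, adjusted p = 0.00554), and Ppp1r1a, a phosphatase inhibitor (-0.51, adjusted p = 0.0330). Control 2 held 3882 CPM of Ppp3ca and withdrawal 2 held 1423 CPM, above the mean of 765 ± 333 CPM (SD, n = 3) in the other controls. Among 19 known CREB target genes, 2 rose and 2 fell: the secreted peptides Vgf (0.48, adjusted p = 0.0352) and Scg2 (0.34, adjusted p = 0.0395) were higher, and the clock gene Per1 (-0.51, adjusted p = 0.00558) and the activin subunit Inhba (-1.35, adjusted p = 0.0377) lower. Per1 was the only gene of these 8 lists called with all 10 libraries (log2 change -0.60, adjusted p = 0.0444). The median log2 change of the CREB targets was -0.23 and that of all genes 0.01, while the medians of the other lists ran from -0.07 to 0.14. The summed level of the 20 listed CREB targets overlapped between the groups. It was 942 to 1026 CPM in controls 1, 3 and 4 and 938 to 1041 CPM in the 5 withdrawal libraries.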

How the data were processed

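Per the labels' protocols, TRIzol was used to isolate RNA, and 1 µg of it went into a VAHTS Universal V8 library. Per the file headers, the authors deposited raw read counts per gene and FPKM side by side. HISAT2 2.2.1, HTSeq 0.6.1, cutadapt 1.9.1 and the build mm39 are named, per the submitters' processing notes. The annotation release, strand setting and gene lengths are not given in the sources used here, so overlapping and antisense genes could not be told apart by strand. GENCODE M21 named 52073 of 56691 identifiers. Its build differs from mm39, so no coordinates of it are given. The coordinates of the promoter stretches are those of the RefSeq windows on GRCm38.p6 and do not apply to mm39.

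The 17426 genes with a mean of at least 0.5 FPKM, which took 99.6% or more of every library's counts, were tested with edgeR 4.0.16 (quasi-likelihood, TMM factors, R 4.3.3), 2-sided, at a threshold of 0.05 after Benjamini-Hochberg adjustment over all genes. SE was derived from the quasi-likelihood F. Alternatives were DESeq2 1.42.0 (without independent filtering), limma 3.58.1 on log2(FPKM + 1) and log2(FPKM + 0.1), RLE factors, a minimum of 1 FPKM or none, a replicate block, and each library left out. The fits were tested on simulated data. The members and lists were chosen with earlier results of these data known, and so was the choice of the 2 libraries left out. Values in every library are given for members called or without overlap between groups, for the most abundant cyclase, phosphodiesterase, PKA catalytic and regulatory subunit, Epac, anchor or inhibitor, and transcription factor or CRTC coactivator, and for the 4 largest and smallest ratios in control 2 and withdrawal 2, and genes of other lists where called or of smallest p. PCR reads carry no molecular identifiers, so copies of a molecule could not be told from separate molecules. Their effect on counting error was not tested.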

Additional observations from a re-analysis of the deposited data

Results flagged for a closer look

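In 17 of 90 groups of libraries (45 members, control and withdrawal), 1 library stood apart from the rest of its group by Dixon's criterion, which chance meets in about 1 in 20 groups. Of these 17, 10 were withdrawal 2, 6 control 2 and 1 control 3. The criterion was not applied to all genes, so the count is not read as particular to the members. Over all genes tested, 29.5% lay above and 34.9% below the 8 libraries in control 2, and 22.1% and 23.5% in withdrawal 2. In withdrawal 2 the high values were Adcy1 at 866.4 CPM, Adcy9 at 43.4 CPM, Akap5 at 100.3 CPM, Crtc1 at 146 CPM and Pde3a at 19.28 CPM. The low values in withdrawal 2 were Adcy8 at 13.6 CPM, Pde4d at 30.2 CPM, Prkacb at 408.7 CPM, Prkar1a at 749.8 CPM and Prkar1b at 285.7 CPM. In control 2 the high values were Adcy2 at 236.9 CPM, Akap5 at 104.5 CPM, Pde1a at 209.3 CPM, Pde3b at 27.52 CPM and Prkar1b at 507.9 CPM, and the low value was Prkar2b at 33.13 CPM. Creb1 at 87.11 CPM in control 3 was the highest control. Prkar1b thus stood apart in both groups in opposite directions, high in control 2 and low in withdrawal 2.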

How the results depend on the processing

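With all 10 libraries, 0 members were called by edgeR with the other filters and RLE factors and by limma at either pseudocount, and 3 by DESeq2. Leaving out 1 library gave 0 to 3 members, with 3 only without withdrawal 2. With 8 libraries the 12 members (12.1% of all genes) became 13 with a minimum of 1 FPKM (14.0% of 14928 genes, Prkar1a added). With no minimum they became 13 (6.25% of 35072 genes, Pde8a, Pde8b and Rapgef4 added, Creb1 and Prkaca lost). RLE factors gave 12 (12.3%) and DESeq2 gave 16 (17.0%). limma gave 10 (1915 and 1858 genes at the pseudocounts 1 and 0.1, Prkar1a added, Creb1, Crtc1 and Pde4dip lost). Leaving out 1 of the 8 gave 6 to 15 members. Over all genes, the 29 calls with 10 libraries became 393 with DESeq2, 15 and 7 with limma, and from 4 to 814 with a library left out. The 2116 calls with 8 libraries became 907 without control 3 and 1151 without withdrawal 5. Akap5 with 10 libraries had log2 changes from -1.90 (without withdrawal 2) to 0.18 (without control 2, the one change of direction). A replicate block gave 7 members and 1093 genes (6.27%) with 8 libraries, Pde1b and Ppp1r1b among them, and 0 genes with 10. Withdrawal 5 and 6 have no control of their number, so they add nothing to the contrast in that setting. With 8 libraries it rests on the libraries numbered 1, 3 and 4. For the replicate numbers, the mean of the group was subtracted from each gene's log CPM, and these deviations were correlated between same-numbered libraries. The correlations of the deviations were 0.02, 0.28, -0.12 and 0.22, so the numbers, given to different mice, were not taken as pairs. Only the libraries numbered 2 and 4 correlated best with their own number. The cause of these differences was not tested. With 3 controls, 1 library decides many calls, and small changes near the threshold (Creb1, Prkaca, Pde4dip, Crtc1) depend on the setting.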
